A study of Homo sapiens with 24 samples.

Results

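Histone H3 carries methyl groups on lysine 36 (H3K36) over the bodies of transcribed genes, and 10 genes of the enzymes that write or erase them were followed here in HepG2 cells. The members were the rows of the deposited count table whose symbol was SETD2, NSD1, WHSC1, WHSC1L1, ASH1L, KDM2A, KDM2B, KDM4A, KDM4B or KDM4C. All 10 were found among the 34618 genes of the table, and 9 of the 10 had enough counts to be tested. WHSC1 and WHSC1L1 are the older symbols of NSD2 and NSD3.

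HepG2 is a human hepatocellular carcinoma line. Its cells had been transduced with lentivirus carrying a hairpin RNA against SETD2 (shSETD2), a hairpin against METTL14 (shMETTL14) or a non-specific hairpin (shCtrl), and all 3 lines were selected with puromycin at 1 ug/mL, as the labels describe. The labels name 1 hairpin condition per target and give neither the hairpin's sequence nor whether a line was cloned. Each line was sampled without actinomycin D (0 h) and after 1, 3 and 6 h in 5 ug/mL actinomycin D, a blocker of transcription, and every line and time has 2 libraries. The comparisons ask how the RNA level of the H3K36 enzymes stood in each knockdown line and how fast each RNA was lost once synthesis stopped.

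SETD2 is the enzyme that trimethylates H3K36 as it travels with elongating RNA polymerase II. NSD1, WHSC1 and WHSC1L1 place the lower methylation states, and ASH1L is a trithorax-group methyltransferase of the same residue. KDM2A and KDM2B are JmjC demethylases of the dimethylated form that bind unmethylated CpG through a CXXC zinc finger, while KDM4A, KDM4B and KDM4C remove trimethyl groups from H3K9 and, less readily, from H3K36. METTL14 is a subunit of the N6-methyladenosine (m6A) writer of RNA, and H3K36 trimethylation has been reported to guide m6A deposition through it.

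Library totals ran from 18.3 to 31.4 M counts, so that 3 counts in a library stood for 0.0955 to 0.164 CPM (counts scaled to a common library total). The 2 libraries of a group differed by a chi-square of 1.37 to 5.64 per degree of freedom in 11 groups and by 19.5 in shSETD2 at 6 h. Most member fold changes at 6 h, changes after 3 h and slopes that use that pair are therefore also given with 1 library left out. Half-lives from the counts and slopes of genes outside the members are given with both libraries only. All 9 hepatocyte markers averaged over 1 RPKM at 0 h, and their sum was 1.9e+04 to 1.91e+04 RPKM in shSETD2, 1.16e+04 to 1.17e+04 in shMETTL14 and 9.98e+03 to 1.01e+04 in shCtrl. The HEK293T markers, for the cells that made the virus, summed to at most 0.0294 RPKM. Of 7 blood and immune markers, 2 averaged over 1 RPKM and PTPRC and CD3E were at 0 everywhere; the list summed to 798 to 805 RPKM in shSETD2, 1.4e+03 to 1.44e+03 in shMETTL14 and 682 to 707 in shCtrl. Of 6 endothelial and stellate markers, 1 averaged over 1 RPKM and KDR was at 0, with sums of 111 to 112, 140 to 143 and 214 to 216 RPKM in the same lines. Of 7 fibroblast markers, 2 averaged over 1 RPKM and DCN was at 0, with sums of 2.34 to 2.41, 4.45 to 4.83 and 1.92 to 2.02 RPKM. The part of these marker differences in the member results was not tested. Levels are shares of the RNA in a library, so fewer cells of a kind and less RNA per cell cannot be told apart.

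The member with almost no reads was NSD1 (ENSG00000165671; chromosome 5, 176560026 to 176727216, GRCh37, plus strand), a methyltransferase mutated in Sotos syndrome. It had 3 and 3 counts in shSETD2, 1 and 2 counts in shMETTL14 and 0 and 6 counts in shCtrl at 0 h. Over all 24 libraries it had 56 counts, with no library above 6, and the highest value was 0.0156 RPKM (reads per kilobase of exon, scaled to the library total). The shCtrl library with 0 counts among 22.1 M allows a level of up to 0.136 CPM. NSD1 therefore did not pass the filter on low counts and entered no test. In the same libraries at 0 h, its neighbour FGFR4, 34881 bases before it, stood at 28.2 to 55.5 RPKM, and RAB24, 983 bases after it, at 1.18 to 1.71 RPKM. Among genes with any reads in shCtrl at 0 h, NSD1 lay at percentile 3.64 of the RPKM level, against percentiles 61.7 to 86.5 for the other 9 members.

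KDM4B, a trimethyl demethylase, was the member with the largest fall in shSETD2 at 0 h. The 250 bases before the start that RefSeq (GRCh38.p14) lists first are shown for NSD1 and for the member that fell most. Each CG dinucleotide is in capitals, because the CXXC fingers of KDM2A and KDM2B bind such sites when unmethylated. A gene can have several starts, and the one used may differ from the gene start of the count annotation. The CG search reads the same on both strands. NSD1 covers chr5:177131548-177131797 and KDM4B chr19:4968863-4969112, both on the plus strand.
NSD1: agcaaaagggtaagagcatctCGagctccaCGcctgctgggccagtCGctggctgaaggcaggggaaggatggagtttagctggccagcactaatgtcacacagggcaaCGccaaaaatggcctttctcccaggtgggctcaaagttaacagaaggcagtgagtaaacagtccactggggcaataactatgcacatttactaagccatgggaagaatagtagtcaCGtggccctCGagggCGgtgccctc
KDM4B: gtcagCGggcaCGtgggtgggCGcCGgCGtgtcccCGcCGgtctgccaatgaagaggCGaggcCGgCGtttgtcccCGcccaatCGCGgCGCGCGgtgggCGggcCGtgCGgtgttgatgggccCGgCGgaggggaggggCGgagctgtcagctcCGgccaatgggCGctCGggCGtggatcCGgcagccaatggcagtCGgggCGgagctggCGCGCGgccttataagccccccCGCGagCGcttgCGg
The NSD1 window held 7 CG and that of KDM4B 36. The median of 35116 RefSeq promoters of this length was 11, 93.9% held at least 1, and 58.9% held as many as NSD1 or more, against 4.85% for KDM4B. Promoters of 9 of the 10 members were matched. The counts of the other 7 ran from 13 for KDM2B to 50 for WHSC1, which RefSeq lists as NSD2. DNA methylation was not measured, and a count of CG says nothing of what binds there.

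Before actinomycin D, the 9 expressed members spanned about the middle to the upper end of expressed genes, whose median in shCtrl was 1.57 RPKM. In shCtrl the order of mean RPKM ran from KDM4A (16.4), SETD2 (14.9), KDM2A (9.29), ASH1L (8.88) and WHSC1 (8.54) to WHSC1L1 (6.62), KDM4C (5.11), KDM2B (4.03), KDM4B (3.84) and NSD1 (0.0078). No neighbours in that order had overlapping library values, with 2 libraries each. In shMETTL14, SETD2 stood first at 14.9 RPKM with KDM4A second at 12.4, KDM2A (9.47) and ASH1L (9.36) overlapped, and KDM4B (3.9) stood above KDM2B (3.48). In shSETD2, KDM4A stood first at 11.1 RPKM, and SETD2 (8.83) and KDM2A (8.48) overlapped. KDM4B was the lowest expressed member there at 1.87 RPKM.

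**Figure D1:**
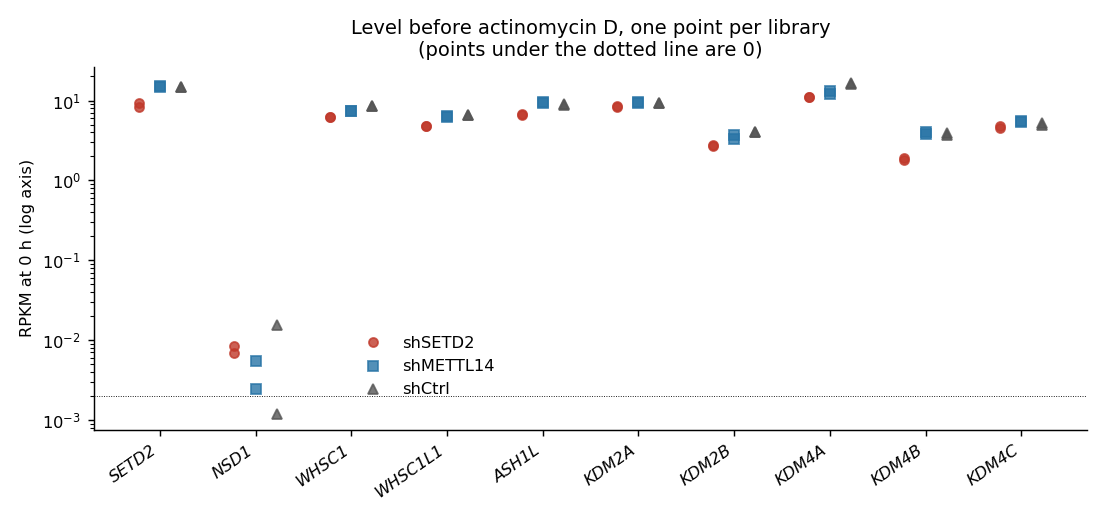
Deposited RPKM of the 10 members at 0 h on a log axis, 1 point per library, with shSETD2, shMETTL14 and shCtrl from left to right. Points under the dotted line are 0; NSD1 stands below 0.0157 RPKM in every library, while KDM4B and SETD2 are lower in shSETD2 than in the other lines.

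The hairpin's own target was checked first. SETD2 (ENSG00000181555; chromosome 3, 47057919 to 47205457, GRCh37, minus strand) had 90.4 and 81.8 CPM in shSETD2, 127 and 124 CPM in shMETTL14 and 131 and 129 CPM in shCtrl at 0 h. Both shSETD2 libraries lay below all 4 others, and the line kept 66.4% of the shCtrl level. The log2 fold change of shSETD2 against shCtrl was -0.59 ± 0.0646 (SE) with an adjusted p of 1.2e-07 in edgeR's quasi-likelihood test over 14887 genes. Under actinomycin D the shSETD2 mean moved away from shCtrl, at 63.8% of it after 1 h, 53.7% after 3 h and 46.0% after 6 h.

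At 0 h, 7 of the 9 tested members were lower in shSETD2 than in shCtrl and 0 were higher, where 18.9% of all tested genes were called lower and 21.6% higher. Leaving the hairpin's target aside, the count was 6 of 8. The median log2 fold change of the 9 members was -0.31, against 0.02 over all tested genes. The 7 calls held under all 34 alternative settings. Scaling by library size alone moved the median of all genes to -0.14 and the split of calls over all genes to 2010 higher and 5103 lower, against 3221 higher and 2820 lower as reported.

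Among the demethylases, KDM4B (ENSG00000127663; chromosome 19, 4969125 to 5153606, GRCh37 as for all member positions, plus strand) had 17.2 and 18.3 CPM in shSETD2 and 33.5 and 31.8 CPM in shCtrl. Its shSETD2 level was 54.3% of shCtrl, a log2 fold change of -0.88 ± 0.0787 (adjusted p = 4.49e-09), beside -0.59 for the hairpin's target; the difference between these genes was not tested. KDM4A (ENSG00000066135; chromosome 1, 44115829 to 44171186), its paralogue, had 56.5 and 55.2 CPM in shSETD2 and 73.7 and 74.4 CPM in shCtrl (log2 fold change -0.41, adjusted p = 4.33e-05). KDM4C (ENSG00000107077; chromosome 9, 6720863 to 7175648), another paralogue, had 45.6 and 47.4 CPM in shSETD2 and 47.5 and 44.4 CPM in shCtrl, with overlapping libraries and an adjusted p of 0.867. KDM2B (ENSG00000089094; chromosome 12, 121866900 to 122018920, minus strand), which recruits a variant polycomb complex to CpG islands, had 36.4 and 35.7 CPM in shSETD2 against 48.5 and 47.3 CPM in shCtrl (log2 fold change -0.41, adjusted p = 0.000111). KDM2A (ENSG00000173120; chromosome 11, 66886740 to 67025558) had 85.6 and 83.6 CPM in shSETD2 and 84.2 and 82.0 CPM in shCtrl, and its log2 fold change of 0.03 (adjusted p = 0.793) turned to -0.13 with library size alone.

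Among the methyltransferases, the 2 expressed NSD genes and ASH1L all fell. WHSC1 (ENSG00000109685; chromosome 4, 1873151 to 1983934), overexpressed through a translocation in a form of myeloma, had 119 and 119 CPM in shSETD2 and 147 and 148 CPM in shCtrl (log2 fold change -0.31 ± 0.0462, adjusted p = 1.04e-05). WHSC1L1 (ENSG00000147548; chromosome 8, 38127215 to 38239790, minus strand) had 71.5 and 70.4 CPM in shSETD2 and 88.9 and 87.3 CPM in shCtrl (log2 fold change -0.31, adjusted p = 0.00038). ASH1L (ENSG00000116539; chromosome 1, 155305059 to 155532598, minus strand) had 88.2 and 85.4 CPM in shSETD2 and 105 and 102 CPM in shCtrl (log2 fold change -0.25, adjusted p = 0.00201). In each of these genes both shSETD2 libraries lay below both shCtrl libraries.

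In shMETTL14 at 0 h, 3 of the 9 members were lower than in shCtrl and 0 were higher, where 25.1% of all tested genes were called lower and 23.1% higher; the members' median log2 fold change was -0.05, against -0.01 over all tested genes. KDM4A had 56.3 and 51.9 CPM in shMETTL14 and 73.7 and 74.4 CPM in shCtrl (log2 fold change -0.45 ± 0.0678, adjusted p = 8.5e-06). WHSC1 had 124 and 123 CPM in shMETTL14 and 147 and 148 CPM in shCtrl (log2 fold change -0.25, adjusted p = 9.39e-05). KDM2B had 37.8 and 41.9 CPM in shMETTL14 against 48.5 and 47.3 CPM in shCtrl (log2 fold change -0.27, adjusted p = 0.00445). These 3 genes are among the 7 that were lower in shSETD2, and both comparisons use the same shCtrl libraries. KDM4B had 32.9 and 31.1 CPM in shMETTL14 and overlapped shCtrl (log2 fold change -0.03, adjusted p = 0.768), and SETD2 had a log2 fold change of -0.05 (adjusted p = 0.557). WHSC1L1 lay below shCtrl in both libraries at 80.3 and 81.4 CPM without passing the threshold (log2 fold change -0.12, adjusted p = 0.112), although it passed under 9 of 34 alternatives, RLE size factors (-0.177, adjusted p = 0.022) and DESeq2 (-0.177, adjusted p = 0.0192) among them.

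**Figure D2:**
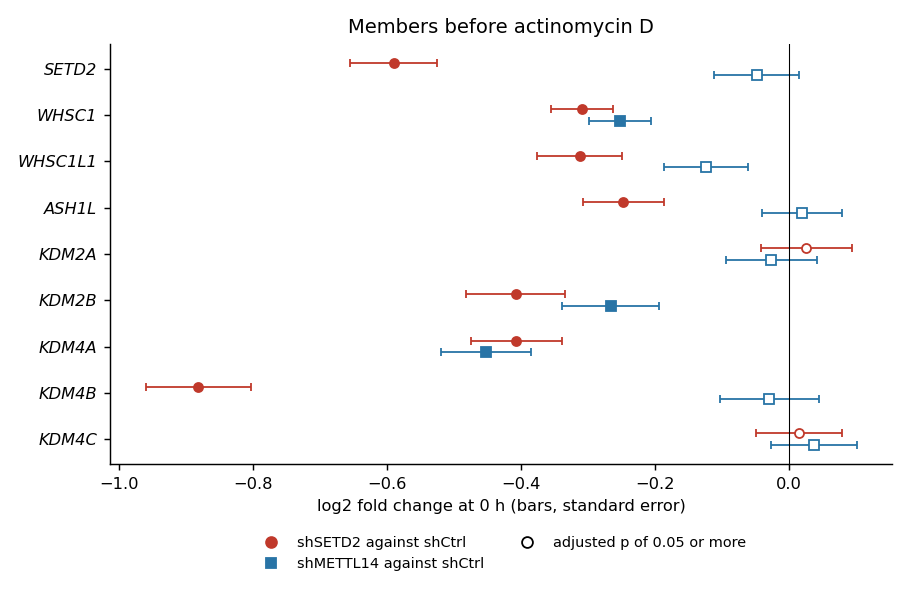
log2 fold change of the 9 tested members at 0 h (horizontal axis) with standard errors as bars, for shSETD2 against shCtrl (circles) and shMETTL14 against shCtrl (squares); open symbols have an adjusted p of 0.05 or more. KDM4B (-0.88) and SETD2 (-0.59) lie farthest below 0 in shSETD2, KDM4A stands at -0.41 in shSETD2 and -0.45 in shMETTL14, and KDM2A and KDM4C lie near 0.

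The knockdown lines were also set against each other. At 0 h, 4 of the 9 members were lower in shSETD2 than in shMETTL14 and 0 were higher, where 23% of all tested genes were called lower and 29.2% higher. KDM4B differed most (log2 fold change -0.85, adjusted p = 5.03e-09), ahead of SETD2 (-0.54, adjusted p = 2.91e-07), ASH1L (-0.27, adjusted p = 0.000679) and WHSC1L1 (-0.19, adjusted p = 0.0157). The WHSC1L1 call was lost when any 1 of the 4 libraries at 0 h of these lines was left out, with adjusted p values up to 0.0889. KDM4A and WHSC1, lower in both knockdown lines than in shCtrl, had log2 differences between the knockdown lines of 0.04 (adjusted p = 0.61) and -0.06 (adjusted p = 0.31). That count depended on scaling: with library size alone, 8 members were called lower, the median of all genes moved to -0.18 from 0.03, and calls over all genes split into 2330 higher and 5787 lower against 4342 higher and 3425 lower as reported.

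The members stayed low in shSETD2 under actinomycin D. Relative to shCtrl, 7 members were lower in shSETD2 at 1 h, where 19.8% of tested genes were called lower, 7 at 3 h (25.3%) and 8 at 6 h (23.9%). With library size alone, calls over all genes at 6 h split into 1975 higher and 4812 lower, against 2528 higher and 3557 lower as reported. KDM4B had log2 fold changes of -1.0 at 1 h, -1.14 at 3 h and -0.77 at 6 h. At 6 h it stood at 13.6 and 11.5 CPM in shSETD2 and 21.5 and 21.4 CPM in shCtrl. KDM4A reached -0.68 at 3 h and -0.67 at 6 h. Without replicate 1 or replicate 2 of shSETD2 at 6 h, the values at 6 h were -0.900 or -0.659 for KDM4B and -0.679 or -0.659 for KDM4A, and both calls held. The only member added at 6 h was KDM4C, at 33.7 and 37.8 CPM in shSETD2 against 42.5 and 38.8 CPM in shCtrl (log2 fold change -0.19, adjusted p = 0.0356). That call was lost under 10 of 33 alternatives, the one without replicate 1 of shSETD2 at 6 h included (adjusted p = 0.335), and the count at 6 h was 7 without that library and 8 without replicate 2.

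In shMETTL14 more members were below shCtrl at 6 h than at 0 h, and demethylases made up the largest fold changes. Relative to shCtrl, 3 members were lower at 1 h (22.6% of tested genes), 4 at 3 h (25.3%) and 6 at 6 h (26.4%). KDM4A had 17.8 and 16.4 CPM in shMETTL14 and 37.6 and 33.3 CPM in shCtrl at 6 h, a log2 fold change of -1.05 ± 0.0842 (adjusted p = 5.33e-10) and 48.3% of the shCtrl level, against 73.1% at 0 h. KDM2A, level with shCtrl at 0 h, had 21.2 and 20.1 CPM in shMETTL14 and 31.6 and 27.3 CPM in shCtrl at 6 h (log2 fold change -0.51, adjusted p = 2.93e-05). KDM4B had 16.2 and 15.7 CPM in shMETTL14 at 6 h, below both shCtrl libraries (log2 fold change -0.43, adjusted p = 0.000378). WHSC1, WHSC1L1 and KDM2B were the remaining calls at 6 h, with log2 fold changes of -0.33, -0.26 and -0.42. Higher values were called once, for KDM4C at 1 h (25.9% of tested genes were called higher), at 42.9 and 44.8 CPM in shMETTL14 and 39.6 and 38.2 CPM in shCtrl (log2 fold change 0.17, adjusted p = 0.0317); that call was lost under 13 of 33 alternatives. Averaged over the 4 times, 7 members were lower than shCtrl in shSETD2 (34.0% of tested genes) and 6 in shMETTL14 (35.4%), with KDM4A at -0.57 and -0.59 and KDM4B at -0.95 and -0.17. Without replicate 1 or replicate 2 of shSETD2 at 6 h, the shSETD2 means were -0.569 or -0.564 for KDM4A and -0.981 or -0.921 for KDM4B.

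**Figure D3:**
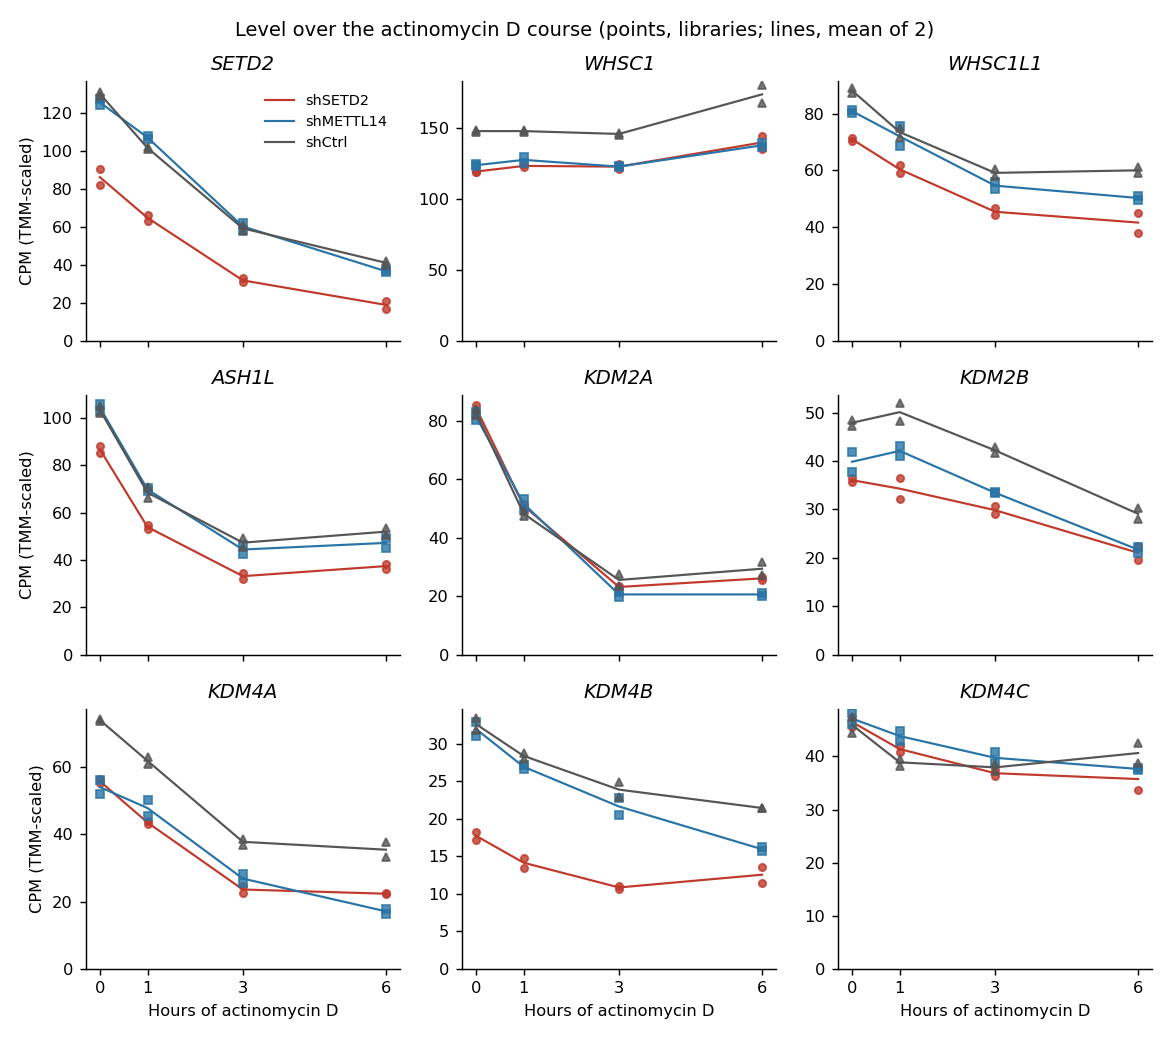
CPM scaled by TMM of the 9 tested members over 0, 1, 3 and 6 h of actinomycin D, 1 panel per gene with its own vertical axis from 0; points are libraries and lines join the means of 2. SETD2 and KDM4B run lower in shSETD2 at every time, KDM4A of shMETTL14 keeps falling between 3 and 6 h, and WHSC1 stays flat or climbs in all 3 lines.

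The members differed widely in how fast their RNA was lost. The slope of log2 level on hours, by least squares over the 4 times, is negative where a transcript fell relative to the rest of the RNA. Of the 9 members, 8 fell in shSETD2 (36.2% of tested genes were called lower), 8 in shMETTL14 (34.8%) and 7 in shCtrl (33.2%), and WHSC1 alone rose in each, though not with library size alone. A positive slope was called for 34.2%, 38.2% and 37.8% of tested genes in the same lines. The members' median slope was -0.13 in shSETD2, -0.16 in shMETTL14 and -0.13 in shCtrl, against -0.001, 0.011 and 0.013 over all tested genes.

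SETD2 and KDM2A had the steepest slopes in shSETD2 and shCtrl, and KDM2A and SETD2 in shMETTL14. The SETD2 slope was -0.371 ± 0.0126 log2 per h in shSETD2, -0.305 ± 0.0113 in shMETTL14 and -0.279 ± 0.0111 in shCtrl, and the KDM2A slope was -0.275 ± 0.0124, -0.330 ± 0.0126 and -0.234 ± 0.0120 in the same lines. KDM4A followed at -0.224 in shSETD2, -0.288 in shMETTL14 and -0.181 in shCtrl, then ASH1L at -0.186, -0.178 and -0.149. The steepest and the flattest KDM4 genes stood far apart, since KDM4C had a slope of -0.060 in shSETD2, -0.052 in shMETTL14 and -0.019 in shCtrl, the last not past the threshold (adjusted p = 0.113). KDM2B, WHSC1L1 and KDM4B lay between, from -0.163 for KDM4B in shMETTL14 to -0.076 for KDM4B in shSETD2. The KDM4C slope in shCtrl passed under 9 of 34 alternatives, library size alone among them (-0.078, adjusted p = 5.19e-07). All 9 members kept their call in shSETD2 without either library of the 6 h pair. Without replicate 1 or replicate 2 of shSETD2 at 6 h, the slope in shSETD2 was -0.344 or -0.399 for SETD2, -0.270 or -0.280 for KDM2A, -0.226 or -0.223 for KDM4A and -0.180 or -0.193 for ASH1L. It was -0.149 or -0.116 for KDM2B, -0.107 or -0.149 for WHSC1L1, -0.098 or -0.058 for KDM4B, -0.046 or -0.074 for KDM4C and 0.028 or 0.043 for WHSC1.

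WHSC1 was the one member with no fall between 0 and 6 h under TMM scaling. It had 144 and 135 CPM in shSETD2, 139 and 136 CPM in shMETTL14 and 179.7 and 167 CPM in shCtrl at 6 h, against 119 and 119, 124 and 123, and 147 and 148 CPM at 0 h in the same lines. Its slopes were 0.036 in shSETD2, 0.023 in shMETTL14 and 0.038 in shCtrl. The direction turned with library size alone, to -0.013, -0.049 and -0.021. Between 3 and 6 h WHSC1 rose by 0.19, 0.17 and 0.25 on the log2 scale in shSETD2, shMETTL14 and shCtrl, where 19.2%, 17.7% and 18.8% of tested genes were called higher. Without replicate 1 or replicate 2 of shSETD2 at 6 h the rise in shSETD2 was 0.139 or 0.230. With library size alone the rise was 0.044 in shSETD2 (adjusted p = 0.522) and 0.004 in shMETTL14 (adjusted p = 0.955).

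Between 0 and 1 h, 6 members fell in shSETD2 (16.1% of tested genes), 6 in shMETTL14 (16%) and 7 in shCtrl (15.9%). KDM2A fell most in that hour, by 0.73 on the log2 scale in shSETD2, 0.66 in shMETTL14 and 0.78 in shCtrl, ahead of ASH1L, at -0.69, -0.58 and -0.59. KDM2B was not called in the first hour in any line, with log2 changes of -0.07 in shSETD2, 0.08 in shMETTL14 and 0.07 in shCtrl. Between 1 and 3 h, 8 members fell in shSETD2 (25.4% of tested genes), 7 in shMETTL14 (23.4%) and 7 in shCtrl (21.2%), with KDM2A again at the front (-1.14, -1.32 and -0.92).

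Between 3 and 6 h, 2 members fell in shSETD2 (19.9% of tested genes), 4 in shMETTL14 (21.8%) and 2 in shCtrl (19.8%). SETD2 fell in all 3 lines, by 0.76 on the log2 scale in shSETD2, 0.72 in shMETTL14 and 0.53 in shCtrl, and KDM2B fell by 0.50, 0.62 and 0.54. The 2 further genes in shMETTL14 were KDM4A (-0.64, adjusted p = 1.9e-06) and KDM4B (-0.44, adjusted p = 0.000235). In shCtrl their changes over the same 3 h were -0.09 (adjusted p = 0.379) and -0.16 (adjusted p = 0.141). Without replicate 1 or replicate 2 of shSETD2 at 6 h, the change in shSETD2 was -0.597 or -0.926 for SETD2 and -0.609 or -0.411 for KDM2B.

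Whether a hairpin altered the rate relative to the rest of the RNA was tested as the difference of slopes. A change shared by most genes is largely removed by the scaling and cannot be seen in this test. In shSETD2 only SETD2 itself passed, with a slope lower by 0.092 log2 per h than in shCtrl (difference -0.092 ± 0.0167, adjusted p = 0.00145), where 7.94% of tested genes were called in either direction and 6.45% lower. The difference was -0.065 without replicate 1 of shSETD2 at 6 h (adjusted p = 0.0195) and -0.120 without replicate 2 (adjusted p = 9.14e-06). More members passed without replicate 2, and the share of all tested genes called in that setting is not given here. The differences there were -0.061 for WHSC1L1, -0.044 for ASH1L and -0.055 for KDM4C, against -0.040, -0.037 and -0.041 with both libraries. The SETD2 call was lost without replicate 2 of shCtrl at 0 h (adjusted p = 0.0581). KDM4B, the member lowest against shCtrl at 0 h, had a slope difference of 0.021 ± 0.0194 (adjusted p = 0.559), which turned to -0.084 without the 6 h libraries.

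In shMETTL14, 3 members passed, all demethylases with steeper slopes than in shCtrl, where 5.21% of tested genes were called in either direction and 3.35% lower. KDM4A had a slope difference of -0.107 ± 0.0170 log2 per h (adjusted p = 0.000326) and KDM2A one of -0.097 ± 0.0173 (adjusted p = 0.00114). KDM4B had -0.066 ± 0.0183 (adjusted p = 0.0367) and lost the call under 18 of 34 alternatives. The KDM4A difference rested on the last time, at an adjusted p of 0.552 without the 6 h libraries. The remaining 6 tested members had differences between -0.034 and -0.016, none past the threshold.

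Between the knockdown lines, SETD2 had the steeper slope in shSETD2 (shSETD2 minus shMETTL14, -0.065 log2 per h, adjusted p = 0.0157), where 6.40% of tested genes were called lower. The slopes of KDM4B (0.087, adjusted p = 0.00703), KDM4A (0.064, adjusted p = 0.0253) and KDM2A (0.055, adjusted p = 0.0497) were less steep in shSETD2, where 3.20% of tested genes were called higher. Without replicate 1 of shSETD2 at 6 h the adjusted p values were 0.169 for SETD2, 0.0808 for KDM4B, 0.0555 for KDM4A and 0.0501 for KDM2A. Without replicate 2 they were 0.000235, 0.000902, 0.017 and 0.0583. Without the 6 h libraries of all lines the difference turned to -0.055 for KDM4A (adjusted p = 0.355) and -0.034 for KDM4B (adjusted p = 0.708), and the KDM2A call was lost (adjusted p = 0.318). The SETD2 call was lost with RLE size factors (adjusted p = 0.0591) and with library size alone (adjusted p = 0.103).

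**Figure D4:**
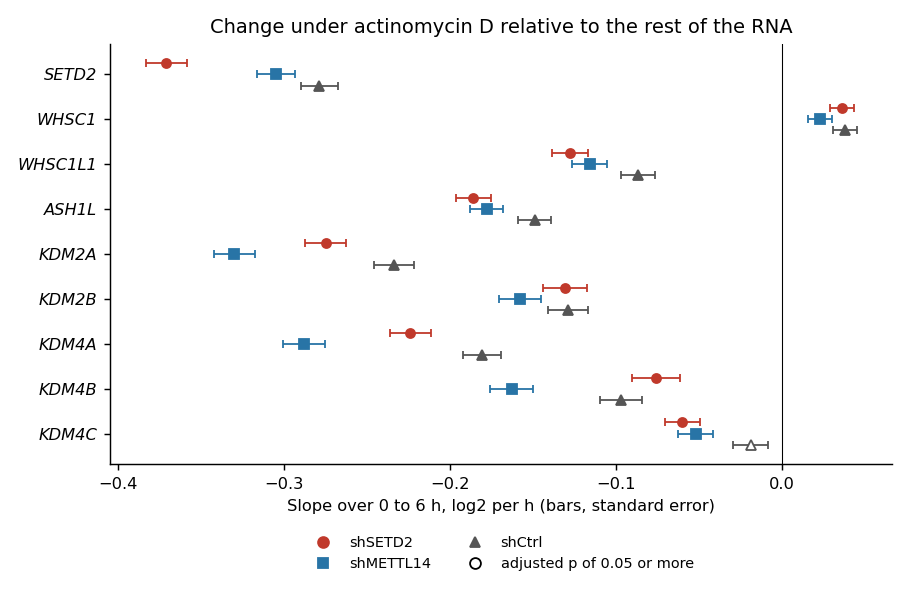
Slope of log2 CPM on hours of actinomycin D for the 9 tested members, with standard errors as bars, in shSETD2, shMETTL14 and shCtrl. SETD2, KDM2A and KDM4A are the steepest, WHSC1 lies just above 0, and the shMETTL14 values of KDM2A and KDM4A stand apart from those of shCtrl.

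The authors' deposited table gives 1 half-life per gene and line for 8 of the 10 members, with no replicate, and lists neither NSD1 nor WHSC1. In the authors' deposited table SETD2 had a half-life of 1.98 h in shSETD2, 2.3 h in shMETTL14 and 2.88 h in shCtrl. KDM2A had 2.46, 2.17 and 3.22 h and KDM4A 2.82, 2.38 and 3.89 h in the same lines of the authors' deposited table. Longest lived was KDM4C, at 5.19 h in shSETD2, 5.47 h in shMETTL14 and 10.7 h in shCtrl, per the authors' deposited table. KDM4B stood at 4.91, 3.41 and 5.93 h there, the largest contrast between the knockdown lines (shSETD2 over shMETTL14, 1.44) of the 8 in the authors' deposited table.

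All 8 deposited half-lives were shorter in both knockdown lines than in shCtrl, but so were those of 88.2% of the 7772 genes of the authors' deposited table in shSETD2 and 88.8% in shMETTL14. The median of all genes in the authors' deposited table was 4.13 h in shSETD2, 4.31 h in shMETTL14 and 6.02 h in shCtrl, and the median ratio to shCtrl was 0.702 and 0.717 for the knockdown lines. In the authors' deposited table, KDM4C (0.484) and WHSC1L1 (0.61) had the lowest ratios of shSETD2 to shCtrl, and KDM4C (0.511), KDM4B (0.575) and KDM4A (0.612) the lowest of shMETTL14 to shCtrl. Half-lives computed here from the slopes of the scaled counts were longer than the deposited ones for all 8. SETD2 came to 2.69 h in shSETD2, 3.27 h in shMETTL14 and 3.58 h in shCtrl, and KDM4A to 4.46, 3.47 and 5.49 h. KDM4B alone was longer in shSETD2 than in shCtrl, at 12.9 h against 10.3 h, opposite to its deposited order. Its replicates gave 17.8 and 10.1 h in shSETD2 and 10.2 and 10.4 h in shCtrl. KDM2B differed little between these lines, at 7.63 h in shSETD2 and 7.76 h in shCtrl.

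**Figure D5:**
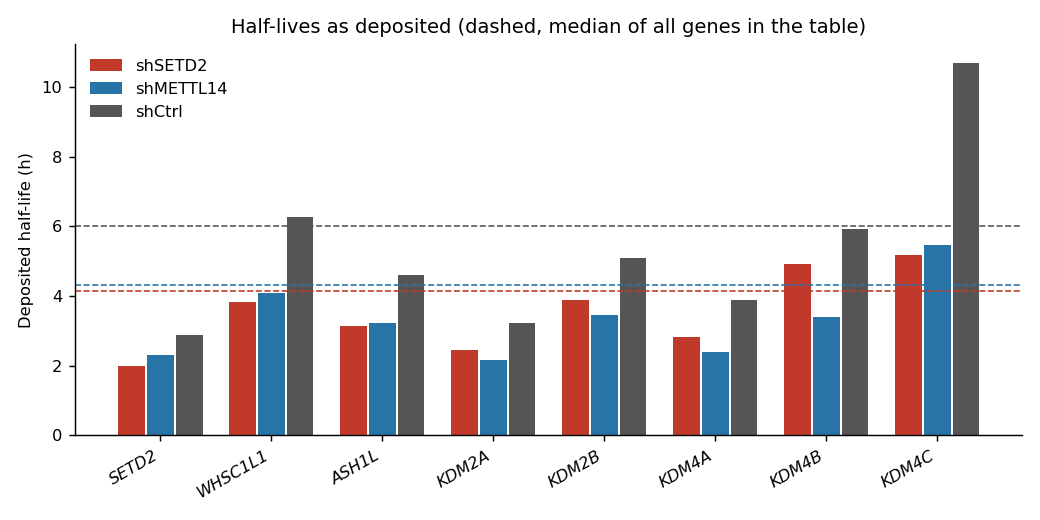
Half-lives in hours from the authors' deposited table for the 8 members it lists, as bars for shSETD2, shMETTL14 and shCtrl, with the median of all 7772 genes per line dashed. Bars for each member are shorter in both knockdown lines than in shCtrl, as are the dashed medians, and SETD2 and KDM2A have the shortest.

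The members shared a course to differing degrees. Over the 12 group means of log2 CPM, SETD2 and WHSC1L1 had the highest Pearson correlation of the 36 member pairs (0.96), and WHSC1 and KDM4C the lowest (-0.243). Correlations of WHSC1 with the other 8 tested members did not exceed 0.273. These points share lines, times and scaling, so the values describe the course only. Outside the members, the genes most like SETD2 among 9986 compared were CEP170 (0.992), CHST3 (0.990) and EPPK1 (0.990), those most like WHSC1 were CEP164 (0.954), ADCY6 (0.941) and MANF (0.941), and those most like KDM4B were STX6 (0.971), PHLDB1 (0.968) and KIAA0556 (0.960).

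Some counts could hold reads of an overlapping gene, since the sources used here do not say whether counting used strand. WHSC1L1 overlaps DDHD2 on the opposite strand, whose own count was 129% of that of WHSC1L1, and KDM2B overlaps RNF34, at 108% of its count. KDM4C overlaps RP11-390F4.3 on the same strand (7.35%), and the antisense RNAs ASH1L-AS1 and KDM4A-AS1 had 3.09% and 1.02% of the counts of their partners. Values of WHSC1L1 and KDM2B are uncertain for that reason, and the part of such reads in them was not tested. SETD2 overlaps no gene of the annotation used here.

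Other genes of the H3K36 pathway, in lists named for their roles, were tested in the same fit. At 0 h, 18.9% of all tested genes were called lower and 21.6% higher in shSETD2, and 25.1% lower and 23.1% higher in shMETTL14. Of the 5 tested other H3K36 enzymes, 1 was lower and 0 higher in shSETD2 at 0 h, and 3 were lower and 0 higher in shMETTL14 (median log2 fold change -0.17 and -0.27). SMYD2, a methyltransferase that also targets p53, fell in both lines (-0.29 and -0.31). Of 21 readers of H3K36 methylation, 2 rose and 5 fell in shSETD2 and 2 rose and 11 fell in shMETTL14 (median -0.06 and -0.16). HDGFRP2 (0.55) and BRPF3 (0.39) rose and SIN3B (-0.50) fell in shSETD2, and DNMT3B, a DNA methyltransferase with a PWWP domain, fell in shMETTL14 (-0.71). Of 18 partners of transcription elongation, 3 rose and 5 fell in shSETD2 and 2 rose and 11 fell in shMETTL14 (median -0.06 and -0.23), with SSRP1 of the histone chaperone FACT at -0.64 and SUPT6H at -0.43 in shMETTL14.

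Of 9 partners of KDM2B in polycomb complexes, 1 rose and 1 fell in shSETD2 (RYBP at 0.39, not called with library size alone at an adjusted p of 0.0863, and PCGF1 at -0.38) and 0 rose and 4 fell in shMETTL14, RNF2 at -0.45 among them (median -0.02 and -0.15). Of 19 other histone lysine methyltransferases, 1 rose and 9 fell in shSETD2 and 3 rose and 6 fell in shMETTL14 (median -0.18 and -0.13). SETD7 fell (-1.26) and SUV39H2 rose (0.65) in shSETD2. SETD8, the H4K20 monomethyltransferase, fell in shSETD2 (-0.51) and in shMETTL14 (-1.26). EZH2 fell (-0.44) and SETDB2 rose (0.97) in shMETTL14. Of 13 other lysine demethylases, 0 rose and 6 fell in each line (median -0.12 and -0.09), with KDM6B, an H3K27 demethylase, at -0.61 in shSETD2 and -0.67 in shMETTL14 and KDM1B at -0.90 in shMETTL14. The medians over all tested genes were 0.02 in shSETD2 and -0.01 in shMETTL14. No median of these 6 lists changed sign with library size alone or RLE size factors, but the counts in shSETD2 depended on scaling. With library size alone, those called lower were 12 of the 21 readers (5 as reported), 13 of the 18 elongation partners (5), 5 of the 9 KDM2B partners (1), 3 of the 5 other H3K36 enzymes (1), 10 of the 13 other demethylases (6) and 12 of the 19 other methyltransferases (9). With RLE size factors they were 7, 8, 3, 2, 6 and 9 in the same order, and the elongation partners called higher went to 1, against 3 as reported. Calls over all tested genes also moved toward lower with library size alone, as given above for shSETD2 at 0 h. The share of all genes called lower with RLE size factors is not given here, so these shifts are not particular to the lists.

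Of the 13 other demethylases, 4 had a steeper slope in shSETD2 (6.45% of tested genes were called lower) and 4 in shMETTL14 (3.35%) than in shCtrl, among them KDM7A and JMJD1C in shSETD2 (-0.10 and -0.10 log2 per h) and KDM5B, KDM3A and KDM5A in shMETTL14 (-0.08, -0.07 and -0.08). The shSETD2 count was 2 with RLE size factors and 3 with library size alone (shares of all genes not given here). In shSETD2, 1 of 5 other H3K36 enzymes had a higher slope than in shCtrl (C14orf169, 0.16) and 0 a lower one. There 2 of 21 readers were higher and 1 lower, and 1 of 18 elongation partners higher and 2 lower. For KDM2B partners it was 1 and 1 of 9, for other methyltransferases 0 and 1 of 19. In shMETTL14 the same pairs were 0 and 0, 0 and 2, 2 and 2, 0 and 1, and 0 and 1. Either direction was called for 7.94% and 5.21% of tested genes. As a check on the scale, 14 of 15 short-lived transcripts had a negative slope past the threshold in shCtrl (median -0.45 log2 per h; 33.2% of tested genes were called lower) and 11 of 12 long-lived transcripts a positive one (median 0.16; 37.8% called higher).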

How the data were processed

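RNA of 24 HepG2 libraries (3 lines, 4 times, 2 libraries each) was analysed from the count values as the authors deposited them, one per gene and library. The submitters' processing notes name cutadapt, TopHat, HTSeq 0.6.1p1 and the GRCh37 build; the sources used here give neither settings nor strand. The deposited RPKM values equal count over exon length and column total to within 4.7e-06. The authors' deposited half-lives, in hours, have no unit of error; the series' design text derives them from levels after 1, 3 and 6 h over those of untreated cells. The protocol adds ERCC spike-in RNA, but 0 ERCC rows stand in the deposited table, and spike-in scaling was not run.

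Tests were run with edgeR 4.0.16 under R 4.3.3 (two-sided robust quasi-likelihood F test; TMM; filterByExpr over 12 groups; Benjamini-Hochberg at 0.05 over 14887 genes; 12 residual degrees of freedom; biological coefficient of variation 5.04%), a procedure that was also tested on simulated data. limma 3.58.1 and DESeq2 1.42.0 served as alternatives, as did other scalings, filters, pseudocounts (0.1 and 1 RPKM), fewer times, a replicate block and leaving out each library. The series' design text calls the replicates biological; how cultures were kept apart is not stated, so p-values measure the spread between these libraries. Standard errors come from the same fit and include that spread, while floors cover counting error only.

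Members and lists were chosen with earlier results of these data known. All 10 members were described in every comparison, up to 3 called genes with the smallest p could be named per list, and the 3 genes most correlated with SETD2, WHSC1 and KDM4B had a mean of at least 5 CPM.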

Additional observations from a re-analysis of the deposited data

Results flagged for a closer look

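The decay slopes of 4 members differed between lines in the test of the difference itself (edgeR, adjusted over all tested genes). SETD2 had a slope difference of -0.092 log2 per h between shSETD2 and shCtrl and of -0.065 between shSETD2 and shMETTL14; the first was lost under 2 of 34 alternatives and the second under 11. KDM2A had a difference of -0.097 between shMETTL14 and shCtrl and of 0.055 between shSETD2 and shMETTL14, the second lost under 17 of 34. KDM4A had -0.107 between shMETTL14 and shCtrl, lost under 1 of 34, and 0.064 between shSETD2 and shMETTL14, lost under 4 of 34. KDM4B had -0.066 between shMETTL14 and shCtrl, lost under 18 of 34, and 0.087 between shSETD2 and shMETTL14, lost under 2 of 34. Without the 6 h libraries the differences between shSETD2 and shMETTL14 turned to -0.055 for KDM4A and -0.034 for KDM4B. With 2 libraries per line and time, no group was large enough to look for single libraries far from the rest.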

How the results depend on the processing

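Of 58 called values in the comparisons at 0 h and 6 h and of the slopes, 48 kept their call under every alternative, as did 67 of 91 in the comparisons added after the data were seen (1 h, 3 h, the mean of times, successive times, shSETD2 minus shMETTL14 slopes). The 7 members lower in shSETD2 at 0 h were called in every setting. Numbers of called members moved by over 1.5 times as follows. For shSETD2 against shMETTL14 at 0 h (4 reported), library size alone gave 8 and limma on log2(RPKM + 0.1) or (RPKM + 1) gave 7. For the slope difference of shSETD2 and shCtrl (1 reported), the stricter filter, the replicate block (WHSC1L1 added, adjusted p = 0.0457) and the slope without 6 h each gave 2, and limma on log2(RPKM + 1) gave 0; leaving out 1 library gave 0 to 4, the 0 without replicate 2 of shCtrl at 0 h and the 4 without replicate 2 of shSETD2 at 6 h. For shMETTL14 and shCtrl (3 reported), the slope without 6 h gave 1. For fits with 1 library left out, shares over all tested genes are not given here. Of the 4 called differences of shSETD2 and shMETTL14 slopes, 1 was kept without 6 h, 0 without replicate 1 of shSETD2 at 6 h, 1 without replicate 2 of shMETTL14 at 6 h, and 2 without replicate 1 or 2 of shSETD2 or replicate 1 of shMETTL14 at 0 h. Of 4 calls of shMETTL14 against shCtrl at 1 h, 2 were kept without replicate 2 of either line at 1 h; of 6 and 7 calls from 0 to 1 h in shMETTL14 and shCtrl, 3 were kept without replicate 1 of shMETTL14 at 0 h and 4 without replicate 2 of shCtrl at 1 h. In 66 pairs of groups the same-numbered libraries deviated together with r from -0.20 to 0.65 (median 0.16, with 36 over 0.1). Against shCtrl at the same time, r was 0.05 for shSETD2 and -0.13 for shMETTL14 at 0 h, and 0.53 and 0.41 at 6 h. A shared replicate effect at the late times can therefore be present. The reported fit took no pairs, and the replicate block moved no other count of called members by over 1.5 times.

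Under settings other than leaving out a library, direction turned for 14 values past the threshold as reported (11 for WHSC1 slopes and 3 for shSETD2 minus shMETTL14 slopes) and for 50 others; the cause was not tested. At 0 h, shSETD2 against shCtrl turned to -0.028 for KDM2A and -0.038 for KDM4C with RLE size factors and with DESeq2, to -0.131 and -0.140 with library size alone, to -0.130 and -0.137 with limma on log2(RPKM + 0.1), to -0.118 and -0.116 with limma on log2(RPKM + 1) and to -0.042 and -0.052 with the stricter filter; KDM4C was -0.008 with the 0 h libraries only. At 0 h, shMETTL14 against shCtrl turned to -0.034 for ASH1L and -0.016 for KDM4C with RLE size factors and with DESeq2. It turned for SETD2, KDM2A and KDM4B to 0.006, 0.029 and 0.025 with library size alone, to 0.006, 0.028 and 0.023 with limma on log2(RPKM + 0.1) and to 0.006, 0.026 and 0.019 with limma on log2(RPKM + 1). Between shSETD2 and shMETTL14 at 0 h, KDM2A and KDM4A turned to -0.160 and -0.167 with library size alone, to -0.158 and -0.164 and to -0.144 and -0.152 with the limma settings at 0.1 and 1, and to -0.009 and -0.015 with the stricter filter.

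The called WHSC1 slopes turned in shSETD2, shMETTL14 and shCtrl to -0.013, -0.049 and -0.021 with library size alone, to -0.013, -0.048 and -0.021 with limma at 0.1 and to -0.012, -0.042 and -0.019 with limma at 1, and without 6 h to -0.021 in shMETTL14 and -0.008 in shCtrl. The slope difference of shSETD2 and shCtrl turned for WHSC1 and KDM2B to 0.017 and 0.017 with RLE size factors and with DESeq2, to 0.008 and 0.008 with library size alone, to 0.007 and 0.010 and to 0.007 and 0.021 with limma at 0.1 and 1, and to 0.029 and 0.029 with the stricter filter; without 6 h it was 0.018 for WHSC1 and -0.084 for KDM4B. That of shMETTL14 and shCtrl turned to 0.004 for SETD2 without 6 h and to 0.007 for WHSC1 with the stricter filter. That of shSETD2 and shMETTL14, past the threshold as reported, turned to -0.055 for KDM4A and -0.034 for KDM4B without 6 h and to 0.001 for SETD2 with limma at 1.

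Leaving out 1 library turned only values that passed no threshold. At 0 h, shSETD2 against shCtrl ran from -0.085 to 0.041 for KDM2A and from -0.125 to 0.044 for KDM4C, shMETTL14 against shCtrl from -0.104 to 0.019 for ASH1L and from -0.111 to 0.037 for KDM4C, and shSETD2 against shMETTL14 from -0.007 to 0.114 for KDM4A and from -0.048 to 0.021 for KDM4C. The slope difference of shSETD2 and shCtrl ran from -0.011 to 0.030 for WHSC1, from -0.019 to 0.032 for KDM2B and from 0.000 to 0.057 for KDM4B, and that of shMETTL14 and shCtrl from -0.025 to 0.008 for WHSC1 and from -0.038 to 0.004 for KDM2B. NSD1 had at most 6 counts a library and entered no test, and the cause of its few reads was not tested.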
